A study of Mus musculus with 15 samples.

Results

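Brain tumours with floxed Atrx and Cre that carried the wild-type histone H3.3 were compared with tumours that kept Atrx and carried the mutant histone H3.3G34R. The first group, ATRXfl_WT, has the genotype Np53fl;ATRXfl/fl and received H3.3WT-GFP (n = 4). The second, p53_G34R, has the genotype Np53fl and received H3.3G34R-GFP (n = 3). These are 7 of the 15 libraries of the series, chosen by genotype and histone alone. The pair differs in both changes at the same time, so the effect of Atrx and that of the histone cannot be told apart within it. All 7 come from C57BL/6 mice of the Nestin Tv-a line with p53 fl/fl, in which Nestin-expressing cells carry the receptor for the RCAS virus. DF-1 chicken cells that release RCAS-Cre and RCAS-PDGFA, besides the histone, were injected into the cortex, and tumours were taken from the frontal cortex when the mice reached the functional end point. Floxed Trp53, Cre and PDGFA are thus common to both groups, and Nestin expression and infection by the virus limit which cells are hit. No label gives age or sex, and none ties a library to its own mouse. The p-values below thus set group differences against the spread between these libraries, which may in part be technical. Replicates 2 and 3 of p53_G34R share the first code of their titles but not the number that follows it.

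Atrx is a chromatin remodeller of the SWI/SNF family that works with Daxx to place histone H3.3 at heterochromatin, telomeres and other repeats. H3.3G34R replaces a glycine of the histone tail by arginine, close to a lysine whose methylation marks transcribed genes, and in human high-grade gliomas of the cerebral hemispheres the mutation is often found together with loss of ATRX. The series title names targets of PRC2 (the Polycomb complex that methylates histone H3 to keep genes silent), Notch activation and neuronal lineage as the outcomes of both changes together. The groups described here each carry 1 of the 2 changes.

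ATRXfl_WT libraries held 24022308 to 29976738 reads in genes and p53_G34R libraries 26329990 to 30574393. Levels are normalized counts, that is, recovered reads divided by 1 size factor per library, set over these 7 libraries. They are not divided by gene length and are not compared between genes. A log2 change is the mean log2(value + 1) of ATRXfl_WT minus that of p53_G34R, and the limma, edgeR and DESeq2 p-values were adjusted over all genes by Benjamini and Hochberg. Markers of oligodendrocyte progenitors, the cell type that PDGFA drives, summed to 223905 to 306459 in ATRXfl_WT and 165842 to 329519 in p53_G34R. Both ranges overlapped for every cell type marker list measured (11 lists). Library 1 of ATRXfl_WT stood apart with 585471 counts of erythroid and 101892 of endothelial markers, against at most 66871 and 23696 in the other 6 libraries. Library 1 of p53_G34R held 23303 counts of B and plasma cell markers, against at most 8220 elsewhere. Xist, which marks female cells, was at 23.3, 10979, 9.95 and 32382 in ATRXfl_WT and at 22511, 7.18 and 43705 in p53_G34R, so both sexes occur in both groups. In bulk tumours, fewer cells of a type and less RNA per cell cannot be told apart.

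Atrx itself, which checks the labels (chromosome X, 105797615 to 105929403, minus strand, mm10), stood at 2431, 2519, 2004 and 3245 normalized counts in ATRXfl_WT and at 5386, 5927 and 8247 in p53_G34R. The groups did not overlap, and the mean in ATRXfl_WT was 39.1% of that in p53_G34R. The log2 change was -1.35 (SE 0.24). A 2-sided exact permutation test over all 35 splits gave p = 0.0571, the smallest that 4 against 3 libraries can give. Over all genes Atrx did not pass limma (adjusted p = 0.541), edgeR's quasi-likelihood test called no gene, and DESeq2 gave an adjusted p of 0.00756. Counts cover the whole gene, so residual reads are no measure of residual protein. Trp53, the floxed tumour suppressor of both groups, ranged from 609 to 2202 in ATRXfl_WT and from 637 to 1291 in p53_G34R. Pdgfa, of which reads may come from the virus as well as the mouse gene, was at 12619 in library 1 of ATRXfl_WT and at 27101 to 29554 in its other 3 libraries, against 16570.3 to 27718 in p53_G34R. H3f3a and H3f3b, the genes of H3.3, overlapped between groups (log2 changes of -0.07, SE 0.30, and -0.17, SE 0.28). Both have near-identical processed copies in the genome and the virus adds another, so their counts are uncertain.

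Of 17672 genes with a mean of at least 10 normalized counts, 4 passed limma at an adjusted p under 0.05, which is 0.0226% of those tested. Dll3 and Selenov rose in ATRXfl_WT (0.0113%), and the pseudogenes Gm3650 and Gm11942 fell (0.0113%). At an unadjusted p under 0.05 there were 592 genes (3.35%). The groups did not overlap for 468 genes that were higher in ATRXfl_WT (2.65%) and 482 that were lower (2.73%). The median log2 change of all genes was 0.0092, and 50.9% of changes were positive. DESeq2 called 83 of 21158 genes (0.392%), 51 higher (0.241%) and 32 lower (0.151%), and these include all 4 limma calls. edgeR's quasi-likelihood test called 0 (687 genes, or 3.89%, at an unadjusted p under 0.05). When 1 library was left out in turn, limma called Dll3 without ATRXfl_WT replicate 1 (adjusted p = 0.0224) and no gene without any other library. The calls of Selenov, Gm3650 and Gm11942 were thus lost whichever library was left out.

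**Figure D1:**
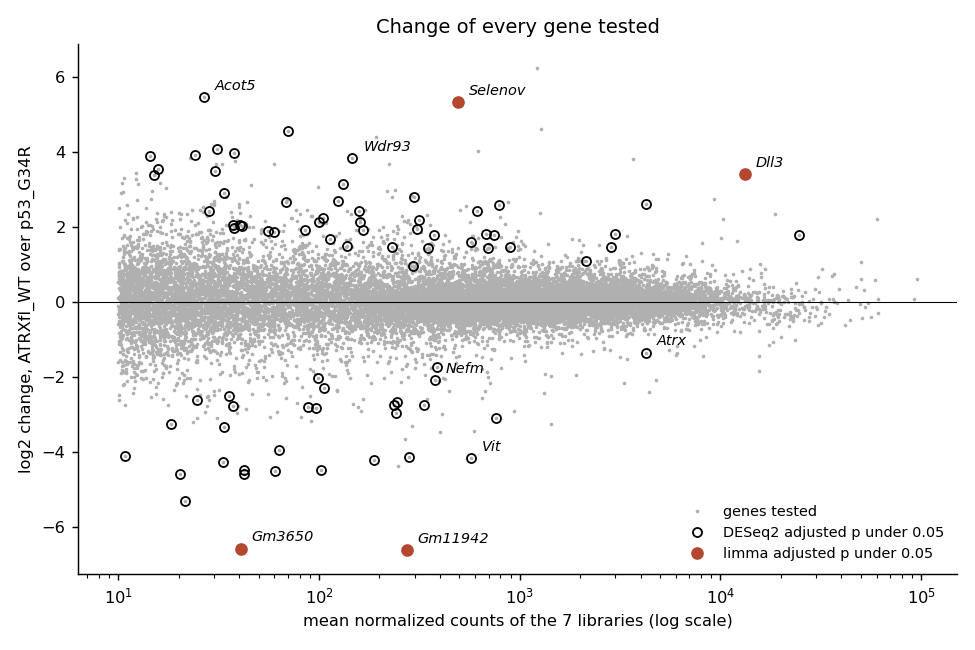
Each point is 1 of the 17672 genes tested, with its mean normalized count over the 7 libraries (log scale, x axis) and its log2 change, ATRXfl_WT over p53_G34R (y axis). Filled points are the 4 genes that passed limma and open circles those that passed DESeq2. Dll3 stands out among highly counted genes, at a log2 change of 3.42.

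Dll3 encodes a divergent Delta-family ligand of Notch that sits mostly in the Golgi, where it binds Notch in the same cell and inhibits it. Selenov, its neighbour, encodes a selenoprotein, a protein with selenocysteine, known mainly from testis. The sequences 250 bases before the RefSeq start (build GRCm38.p6) of these genes and of Eid2, a neighbour, follow, because Selenov lies 2367 bases and Eid2 24281 bases from Dll3 and all of them stood higher in ATRXfl_WT. Each is written 5′ to 3′ on the strand of its gene, and capitals mark CAGCTG, an E-box of the kind that proneural bHLH factors bind, or TGGGAA, the core that the Notch effector Rbpj binds, searched on both strands. The windows are chr7:28301786-28302035 (minus strand) for Dll3, chr7:28291187-28291436 (minus strand) for Selenov and chr7:28267631-28267880 (plus strand) for Eid2. The start that RefSeq gives for Dll3 lies downstream of the one in GENCODE, so its window falls inside the GENCODE span of the gene given with its values, whereas the other 2 windows lie just outside theirs.
Dll3: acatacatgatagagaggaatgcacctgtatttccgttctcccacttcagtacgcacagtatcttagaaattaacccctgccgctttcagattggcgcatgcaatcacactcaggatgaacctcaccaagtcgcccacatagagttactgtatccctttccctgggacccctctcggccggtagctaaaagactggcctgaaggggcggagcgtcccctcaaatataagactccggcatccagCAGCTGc
Selenov: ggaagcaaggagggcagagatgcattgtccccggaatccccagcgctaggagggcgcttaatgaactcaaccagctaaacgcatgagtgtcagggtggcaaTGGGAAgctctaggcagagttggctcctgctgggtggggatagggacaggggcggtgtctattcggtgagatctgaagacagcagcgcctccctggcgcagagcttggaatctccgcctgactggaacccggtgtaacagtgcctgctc
Eid2: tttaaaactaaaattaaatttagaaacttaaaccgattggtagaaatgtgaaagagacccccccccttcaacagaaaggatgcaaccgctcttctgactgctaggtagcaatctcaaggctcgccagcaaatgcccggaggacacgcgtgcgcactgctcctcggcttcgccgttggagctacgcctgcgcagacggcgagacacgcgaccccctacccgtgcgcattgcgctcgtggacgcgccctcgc
The Dll3 window held 1 CAGCTG, which is found in 13% of 32851 promoter windows of this length, and no TGGGAA. The Selenov window held 1 TGGGAA, found in 21.6% of windows, and no CAGCTG, and the Eid2 window held neither. Dll3 and Selenov windows had 10 CpG each and the Eid2 window 23, against a median of 6 over all windows. A match is a description of letters, not of binding. Of 12 genes looked for among the RefSeq promoters, 7 matched, and Fbl, Gm45011, Nccrp1, Nefm and Nefl are named only.

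Dll3 (chromosome 7, 28293553 to 28302238, minus strand) stood at 13855, 22603, 18307 and 31733 normalized counts in ATRXfl_WT, against 2069, 2088 and 1663 in p53_G34R. The lowest ATRXfl_WT library thus lay far above the highest p53_G34R library, and the means of 21624 ± 7627 (SD, n = 4) and 1939.8 ± 240.2 (SD, n = 3) differed 11.2-fold. The log2 change was 3.42 (SE 0.30; limma adjusted p = 0.0258). Selenov (chromosome 7, 28284652 to 28291186, minus strand) had 488, 648, 835 and 1412 counts in ATRXfl_WT, and 35.3, 16.2 and 11.1 in p53_G34R. These groups did not overlap either, with a log2 change of 5.32 (SE 0.53; limma adjusted p = 0.0337).

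Genes around Dll3 were tested by distance between lower coordinates. Of 56 genes within 500 kb, 36 passed the filter on low counts. Dll3 itself and Selenov, 2 of these, passed limma, against 0.0226% of all genes. In 8 of the 36, Dll3 among them, ATRXfl_WT was higher without overlap (2.65% of all genes), and in 1, Zfp626, lower. The window is centred on Dll3 because of its call, so Dll3 was fixed in advance as a higher gene in each count here. Within 250 kb, a distance chosen after values were seen, 7 of 20 tested genes were higher without overlap and none lower, and the median log2 change was 0.78. Nccrp1 lies at the edge of this window and is counted inside by rounding. From 250 to 500 kb, 1 of 16 was higher and 1 lower, and the median was -0.13. Fbl, which encodes fibrillarin, the enzyme that methylates ribosomal RNA, had 720.1, 978, 836 and 1308 counts in ATRXfl_WT and 348, 339 and 347 in p53_G34R (log2 change 1.44, SE 0.27; limma adjusted p = 0.624, DESeq2 0.00184). Eid2, an inhibitor of the acetyltransferase p300, had 3220.2, 2998, 2396 and 2471 counts in ATRXfl_WT and 1622, 1275 and 1055 in p53_G34R (limma adjusted p = 0.810, DESeq2 0.0490). Neither gene overlapped between groups, and neither passed limma.

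Other neighbours, named after their values were seen, were uneven. Dyrk1b, a kinase gene next to Fbl, was at 1689 to 3274 in ATRXfl_WT and at 1002 to 1455 in p53_G34R (log2 change 1.10, SE 0.27; DESeq2 adjusted p = 0.147). Gm45011, with 58.9 to 159 counts in ATRXfl_WT and 8.08 to 21.2 in p53_G34R, and Nccrp1, with 26.6 to 117 counts in ATRXfl_WT and 0 to 7.37 in p53_G34R, passed DESeq2 (adjusted p = 0.00184 and 0.00273). Eid2b and Timm50, which lie nearer to Dll3 than Fbl does, overlapped between groups, with log2 changes of -0.02 (SE 0.46) and 0.25 (SE 0.19). Higher counts near Dll3 were therefore found at some genes and not at others between them.

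**Figure D2:**
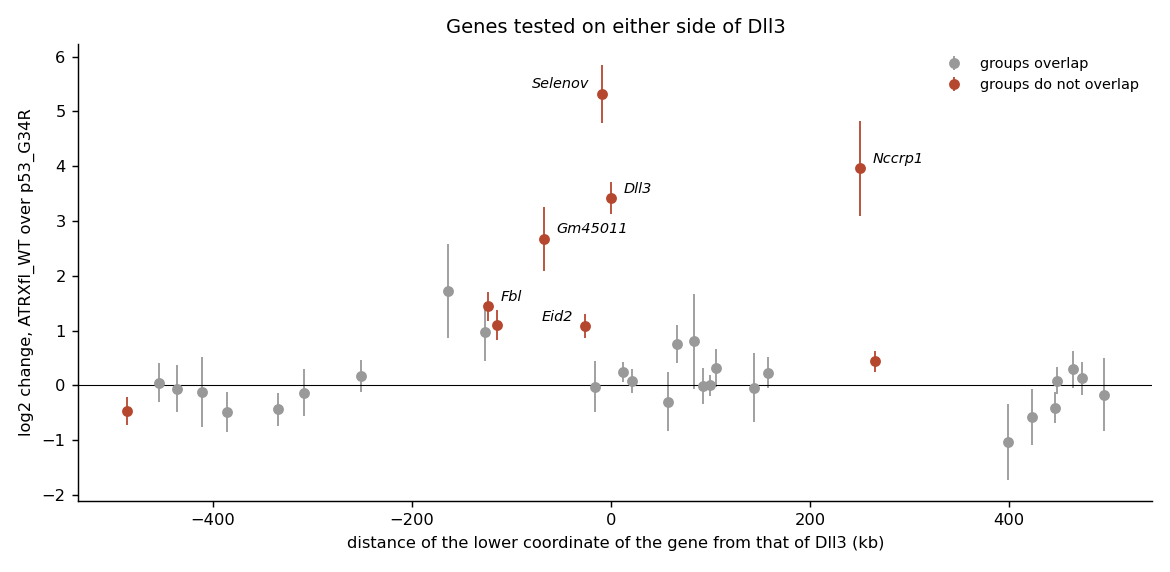
Log2 change, ATRXfl_WT over p53_G34R, of the 36 tested genes within 500 kb of Dll3 (y axis, bars are SE) against distance in kb (x axis). Red points are genes whose groups do not overlap, and names mark the 6 that passed DESeq2. Of the 8 that are higher, 7 lie within 250 kb, Dll3 itself among them.

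Gm11942 (chromosome 4, 32964888 to 32965232, plus strand) and Gm3650 (chromosome 18, 43472816 to 43475169, plus strand) are pseudogenes, so their reads may be shared with the genes that they copy and their counts are uncertain. Gm11942 had 2.02, 2.40, 8.14 and 4.92 counts in ATRXfl_WT, and 1330.2, 255 and 316 in p53_G34R, where library 1 was highest. Its log2 change was -6.62 (SE 0.72; limma adjusted p = 0.0492). Gm3650 had no read in any ATRXfl_WT library, and 90.9, 109.5 and 84.8 counts in p53_G34R (limma adjusted p = 0.0258). Set against 3 reads per library, the limit that a count of 0 allows, it was at least 30.9-fold lower. Eif3j2, annotated as a second gene of a translation initiation factor subunit, lies 249 bases from Gm3650 and had 2.02, 7.21, 14.5 and 22.6 counts in ATRXfl_WT, and 149, 269 and 251 in p53_G34R (log2 change -4.47, SE 0.73; limma adjusted p = 0.358). It too has a near-identical copy elsewhere. In the other direction the pseudogene Tdpx-ps1, named after its values were seen, had 60.7 to 161 counts in ATRXfl_WT and 1.80 to 6.45 in p53_G34R (log2 change 4.55, SE 0.58; limma adjusted p = 0.0971).

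The next genes by p-value among those higher in ATRXfl_WT passed DESeq2 but not limma. Of the 12 named in this direction, 2 passed limma and 11 DESeq2, and predicted genes and pseudogenes passed over numbered 1. Acot5, a thioesterase that releases fatty acids from coenzyme A in peroxisomes, had 28.3, 74.5, 33.5 and 50.1 counts in ATRXfl_WT and no read in any p53_G34R library (limma adjusted p = 0.0609). Against 3 reads per library it was at least 16.1-fold higher. Wdr93, a gene of a WD-repeat protein on chromosome 7, had 364, 272, 201 and 144 counts in ATRXfl_WT, and 11.8, 15.3 and 19.3 in p53_G34R (log2 change 3.84, SE 0.47; limma adjusted p = 0.0776). Plin1, a lipid droplet gene 10260 bases from it, had 37.2 to 92.2 counts in ATRXfl_WT and 10.1 to 14.4 in p53_G34R (limma adjusted p = 0.998, DESeq2 0.0204).

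Ptgds, the lipocalin-type prostaglandin D synthase of glia and meninges, had 902 to 1613 counts in ATRXfl_WT and 104 to 445 in p53_G34R (log2 change 2.58, SE 0.49). Srms, a kinase related to Src, was at 107 to 191 in ATRXfl_WT and 26.7 to 45.1 in p53_G34R (2.24, SE 0.43). Emc9, of the complex that inserts proteins into the membrane of the endoplasmic reticulum, was at 196 to 310.5 in ATRXfl_WT and 50.7 to 83.4 in p53_G34R (1.91, SE 0.39). Megf6, with EGF-like repeats, spanned 2893 to 12039 in ATRXfl_WT and 514 to 1829 in p53_G34R. Dpp7, a lysosomal dipeptidase, was at 1023 to 1366 in ATRXfl_WT and 267 to 572 in p53_G34R. Tnfrsf19, a TNF receptor family member of the nervous system, had the smallest change of the 12 (0.96, SE 0.21; DESeq2 adjusted p = 0.0541). Limma adjusted p-values of these 6 genes lay between 0.624 and 0.832.

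Among genes lower in ATRXfl_WT, no coding gene passed limma and 11 of the 12 named passed DESeq2, with 9 predicted genes and pseudogenes passed over. Vit, a matrix protein gene, had 52.6, 30.04, 63.3 and 94.4 counts in ATRXfl_WT, and 392, 1225 and 2167 in p53_G34R (log2 change -4.17, SE 0.64; limma adjusted p = 0.283). Nefm, the medium neurofilament subunit of neuronal axons, had 132, 120.2, 177 and 209 counts in ATRXfl_WT, and 694, 724 and 597 in p53_G34R (log2 change -2.09, SE 0.33; limma adjusted p = 0.283, DESeq2 2.11e-07). Nefl, the light subunit, had 9.10, 3.60, 1.81 and 9.83 counts in ATRXfl_WT and 121, 58.4 and 31.3 in p53_G34R (-3.33, SE 0.73). The annotated spans of the 2 neurofilament genes overlap, so reads between them are uncertain, but both stood lower without overlap of the groups.

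Bhlhe22, a transcription factor of cortical projection neurons, was at 50.5 to 80.9 in ATRXfl_WT and 287 to 823 in p53_G34R (log2 change -2.74, SE 0.48). Vax1, a homeobox gene of the ventral forebrain and optic stalk, had no read in 3 ATRXfl_WT libraries and 6.88 counts in the 4th, against 25.1 to 82.0 in p53_G34R. Zfp536, a zinc finger gene that represses neuronal differentiation, was at 139.6 to 224 in ATRXfl_WT and 379 to 987 in p53_G34R (-1.72, SE 0.39). Ret, the receptor tyrosine kinase of the GDNF family, was at 50.6 to 129 in ATRXfl_WT and 189.8 to 969.8 in p53_G34R, and Gdnf, a ligand, at 52.6 to 109 in ATRXfl_WT and 114 to 769 in p53_G34R. Lox, which crosslinks collagen and elastin, was at 36.4 to 97.3 in ATRXfl_WT and 298 to 744 in p53_G34R (-2.66, SE 0.50), and Itgav, integrin alpha V, at 5218 to 12494 in ATRXfl_WT and 17712 to 28201 in p53_G34R (-1.45, SE 0.34; DESeq2 adjusted p = 0.0665). Dpyd, the first enzyme of pyrimidine breakdown, was at 6.01 to 106 in ATRXfl_WT and 318 to 933 in p53_G34R. In each of these genes the groups did not overlap, and none passed limma (adjusted p between 0.492 and 0.998).

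**Figure D3:**
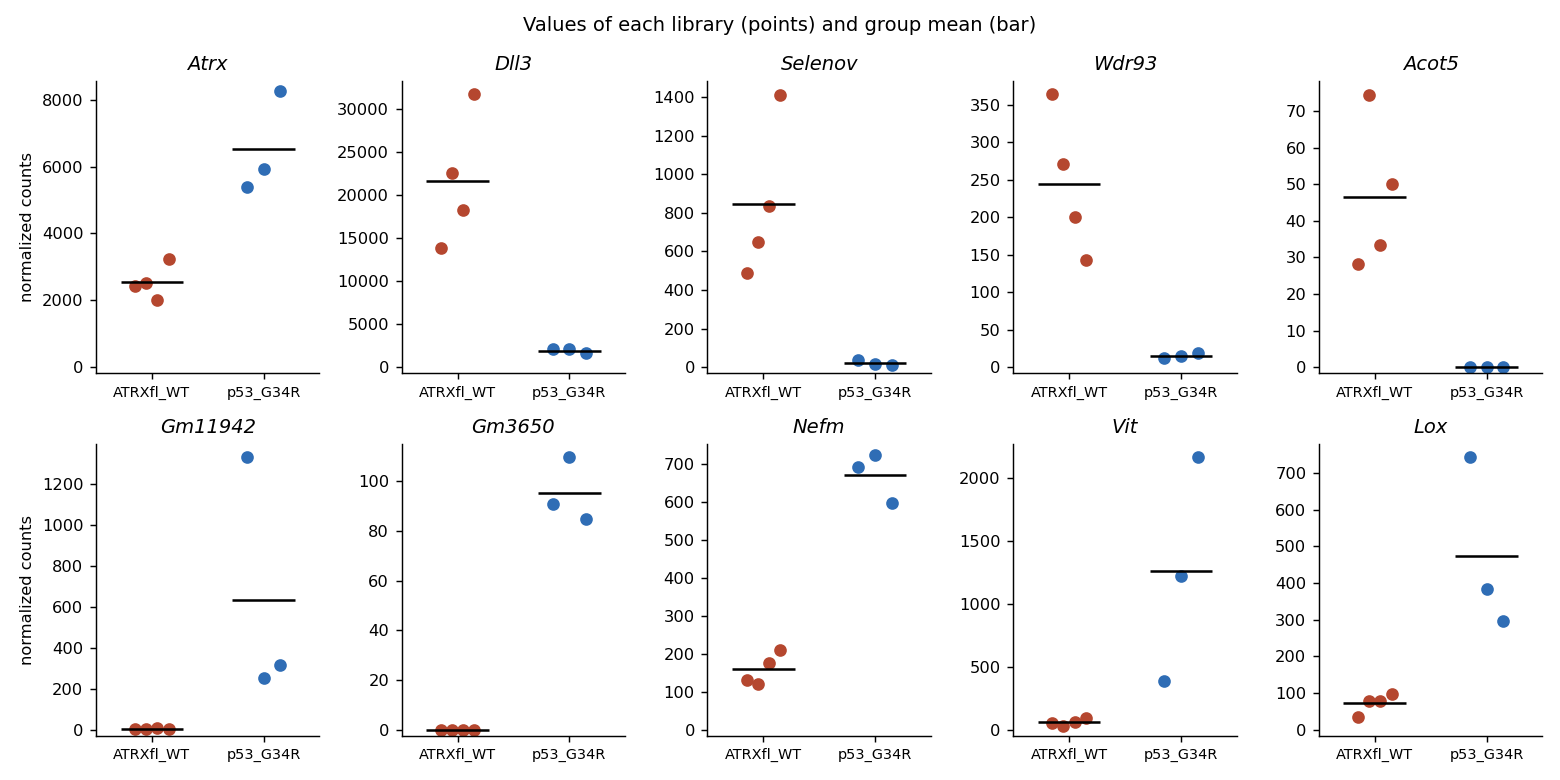
Normalized counts (linear y axis) of 10 genes in the 4 ATRXfl_WT libraries (left) and 3 p53_G34R libraries (right), with bars at group means. No gene shown has overlapping groups; Gm3650 is at 0 in all 4 ATRXfl_WT libraries and Acot5 in all 3 p53_G34R libraries.

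The same genes were set beside the other groups of the series. Values here are scaled over all 15 libraries, and the other groups are ATRXfl_G34R (both changes, n = 4) and p53_WT (neither, n = 4). Of the 24 genes named by rank, 5 separated all 8 floxed libraries from all 7 intact ones (Dll3, Selenov, Fbl and Eid2 higher, Atrx lower), and 0 separated the 7 libraries with H3.3G34R from the 8 with H3.3WT. Over all genes tested, 26 (0.147%) separated floxed from intact libraries and 2 (0.0113%) separated by histone. The 24 were chosen on 7 of these same libraries, which fixes part of the separation, so the count is a description. Floxed and intact libraries come from different mouse lines, and Atrx and any other difference between the lines cannot be told apart. Dll3 was at 12687 to 37315 in ATRXfl_G34R and at 87.2 to 2620.4 in p53_WT. The value of 87.2 was that of p53_WT library 3, and the others of that group were at 1935.6 to 2620.4. The order of medians was ATRXfl_G34R (20566), ATRXfl_WT (19808), p53_WT (2269.5) and p53_G34R (2011), in which neighbours with the same Atrx status overlapped. Selenov likewise had 413 to 1069 counts in ATRXfl_G34R and 2.17 to 23.4 in p53_WT. Gm11942 was at 4.9 to 8.4 in ATRXfl_G34R and 328 to 796 in p53_WT. The remaining limma call, Gm3650, did not separate in this way, with 0 to 50.5 in ATRXfl_G34R and 35.045 to 107 in p53_WT.

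Nefm did not separate by Atrx status. It was at 507 to 1271 in ATRXfl_G34R, above every ATRXfl_WT library (116.8 to 201.6) and overlapping p53_G34R (575 to 697). In p53_WT it was at 5575 in library 3 and at 46.8 to 717.2 in the others. Library 3 of p53_WT also stood apart in Gfap, at 138676.5 against 1067.3 to 10595.4 in the others of its group. Adcy8, an adenylyl cyclase of neurons, was at 386 to 542 in ATRXfl_G34R, 123 to 182.8 in ATRXfl_WT and 38.5 to 66.6 in p53_G34R, while p53_WT, second by its median of 245.8, spread from 56.3 to 509.8 and overlapped all 3. Bhlhe22 was at 62.2 to 341 in ATRXfl_G34R and 277 to 1149 in p53_WT. Wdr93 was at 52.8 to 172.8 in ATRXfl_G34R and 13.5 to 62.9 in p53_WT, so ATRXfl_WT (138.2 to 351.9) was the group with the highest median. Such levels are a description, since groups were not tested against one another here.

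**Figure D4:**
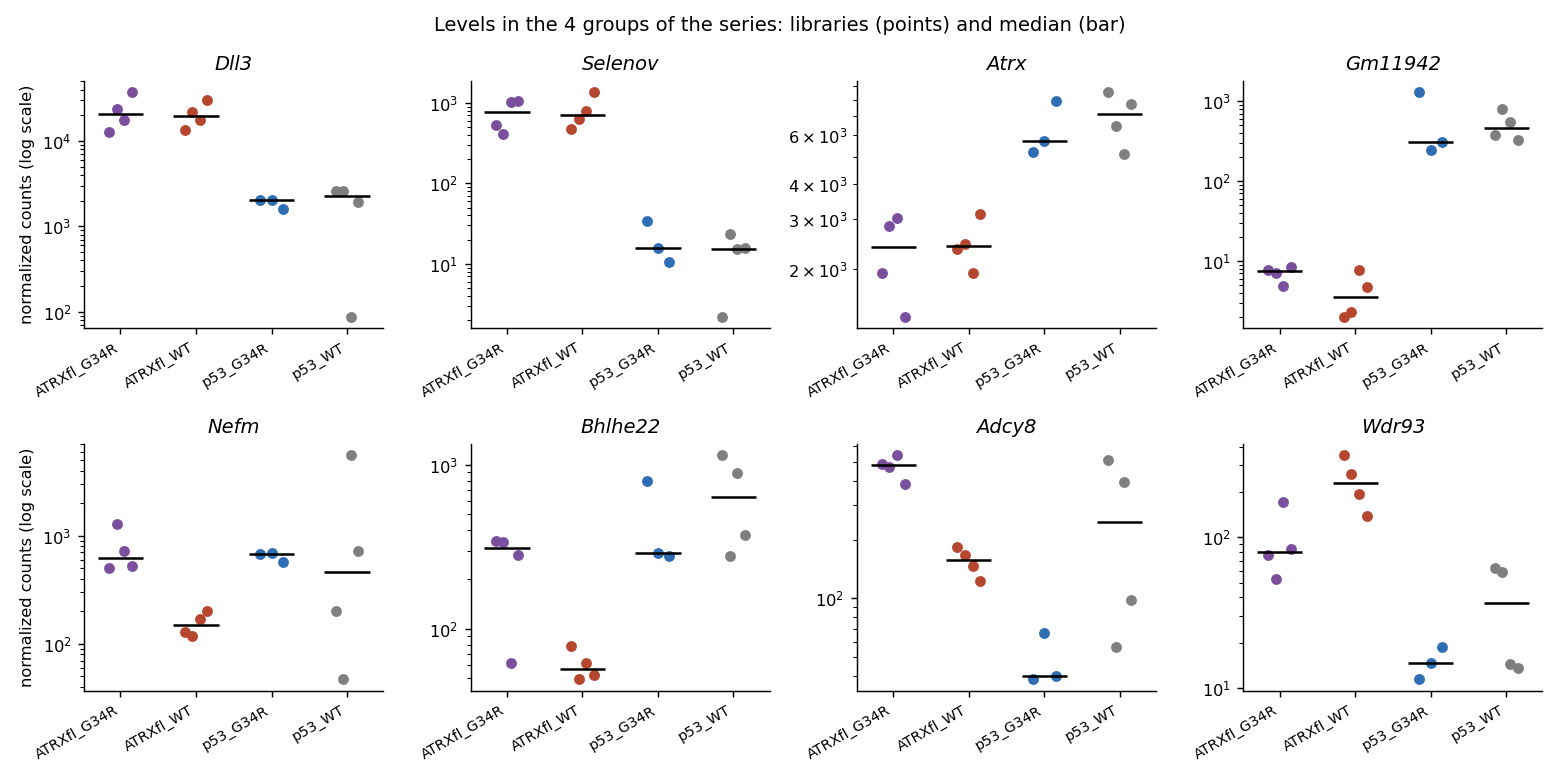
Normalized counts scaled over 15 libraries (log y axis) of 8 genes in ATRXfl_G34R, ATRXfl_WT, p53_G34R and p53_WT, with points for libraries and bars for medians. The upper 4 genes separate floxed from intact libraries, and the lower 4 do not.

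Notch signalling runs from Delta and Jagged ligands on one cell to Notch receptors on the next, whose cut intracellular part turns on Hes and Hey genes. Of 11 ligands and ligand regulators tested, 1 passed limma (Dll3, higher), 6 had a positive log2 change, and the median was 0.03. Jag2, a Jagged ligand, was at 532 to 2989.7 in ATRXfl_WT and 398 to 736 in p53_G34R (log2 change 1.35, SE 0.57). Neurl1a, a ligase that acts on ligands, was at 501 to 931 in ATRXfl_WT and 564 to 1693 in p53_G34R. Dlk1, a non-canonical ligand, was at 303 to 3508 in ATRXfl_WT and 700.1 to 9480.0 in p53_G34R. The groups overlapped for all of these 3 genes, unlike Dll3.

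Of 27 receptors and processing genes, 23 had a positive log2 change (median 0.26), against 50.9% of all genes, and none passed limma or DESeq2. Notch3, a receptor that pericytes also express, was at 914 to 6611 in ATRXfl_WT and 469 to 1289.7 in p53_G34R (log2 change 1.65, SE 0.64). Lfng, which glycosylates Notch, was at 491 to 1339 in ATRXfl_WT and 352 to 691 in p53_G34R. Both overlapped between groups, and Notch3 was highest in library 1 of ATRXfl_WT, the library with the most pericyte markers (142821 counts, against 27665 to 57371 in the other 6). The part of pericytes in this value was not tested. Aph1a, a subunit of the gamma-secretase that cuts Notch, was at 361 to 640.5 in ATRXfl_WT and 251 to 332 in p53_G34R (log2 change 0.78, SE 0.31). Dtx3, of the Deltex family of Notch regulators, was at 6711 to 9994 in ATRXfl_WT and 5119 to 6634 in p53_G34R (log2 change 0.54, SE 0.22). These were the 2 members of the list that were higher without overlap, and 1 was lower, against 2.65% and 2.73% of all genes.

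Of 12 tested Hes, Hey and Id genes among 14 listed, 10 had a positive log2 change (median 0.31) and none passed limma or DESeq2. Id4, which blocks bHLH factors and is also an astrocyte gene, was at 130.2 to 383 in ATRXfl_WT and 58.0 to 94.1 in p53_G34R (log2 change 1.59, SE 0.49; limma adjusted p = 0.998). Hes5, a direct Notch target in neural progenitors, was at 239 to 589 in ATRXfl_WT and 57.7 to 347 in p53_G34R (log2 change 1.27, SE 0.64). Id4 alone was without overlap, against 2.65% of all genes that were higher in this way. Hey1 was at 1128 to 2514 in ATRXfl_WT and 724 to 1742 in p53_G34R, and Hey2 at 685 to 1107 in ATRXfl_WT and 596 to 985 in p53_G34R. When 1 library was left out, the median of receptors lay between 0.16 and 0.34 and that of targets between 0.06 and 0.43, lowest for targets without ATRXfl_WT replicate 1.

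By number of genes, early neuronal genes leaned lower in ATRXfl_WT and synaptic genes were split. The medians of the 2 lists were close, and the lists were not tested against each other. Of 37 tested genes of neuronal fate and early neurons (46 listed), 12 had a positive log2 change, against 50.9% of all genes (median -0.30), 0 passed limma, and Nefm and Nefl passed DESeq2 as lower. St18, a zinc finger factor of neurons, was at 6.88 to 49.6 in ATRXfl_WT and 0 to 13.8 in p53_G34R. Its groups overlapped. Of 34 tested synaptic genes (37 listed), 16 had a positive change (median -0.26, and 0.04 without ATRXfl_WT replicate 2). Adcy8, an adenylyl cyclase of synapses, was at 128 to 189 in ATRXfl_WT and 39.6 to 69.1 in p53_G34R (log2 change 1.69, SE 0.40; limma adjusted p = 0.989, DESeq2 0.00435). It was the 1 synaptic gene that was higher without overlap, against 2.65% of all genes. Eno2, a neuronal enolase named after its values were seen, was at 1929 to 5302 in ATRXfl_WT and 1208 to 1462 in p53_G34R (DESeq2 adjusted p = 0.0347). Cplx2, which regulates vesicle fusion, was at 2504 to 5956 in ATRXfl_WT and 1958 to 2579 in p53_G34R. Rab3a, a GTPase of synaptic vesicles, was at 1265 to 2032 in ATRXfl_WT and 858 to 1547 in p53_G34R. The noncoding Snhg11 was at 170.0 to 1009 in ATRXfl_WT and 145 to 269.9 in p53_G34R. Sums of mature neuron markers were 4263 to 9697 in ATRXfl_WT and 8122 to 10815 in p53_G34R, and their part in these values was not tested.

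Hox genes set position along the body axis and are silent in normal forebrain. Of 39, 7 passed the filter on low counts, 6 of them with a positive log2 change, and none passed limma or DESeq2. A Hox gene could pass the filter through the group in which it is high, so the median of 1.24 only describes these 7, and with no filter the median was 0.27. Hoxa2 was at 38.0 to 157 in ATRXfl_WT and 21.4 to 57.1 in p53_G34R, and Hoxa3 at 43.3 to 981 in ATRXfl_WT and 38.7 to 112 in p53_G34R. Hoxa4 was at 63.9 to 237 in ATRXfl_WT and 48.8 to 124 in p53_G34R. All 3 overlapped between groups. The summed Hox counts were 1939.8, 2659, 854.5 and 423 in ATRXfl_WT and 494, 446 and 332.5 in p53_G34R, so that library 4 of ATRXfl_WT lay among the p53_G34R libraries.

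Among developmental regulators that Polycomb proteins bind in stem cells, 0 passed limma. DESeq2 called 2 higher and 1 lower, against 0.241% and 0.151% of all genes. Of 121 listed, 61 passed the filter on low counts, through either group as for the Hox genes, and 41 of these had a positive log2 change (median 0.40, and 0.16 to 0.76 over the alternatives). At an unadjusted p under 0.05, 8 were higher (1.97% of all genes) and 1 lower (1.38%). The groups did not overlap in 6 higher (2.65% of all genes) and 1 lower (2.73%). Tbx18, of pericytes and early mesoderm, was at 159 to 641 in ATRXfl_WT and 83.8 to 109 in p53_G34R (log2 change 2.17, SE 0.53; limma adjusted p = 0.989, DESeq2 0.00273). Lmx1b, of midbrain and limb, was at 483 to 1789 in ATRXfl_WT and 269.9 to 401 in p53_G34R (log2 change 1.45, SE 0.43). Zic2, of the dorsal neural tube, was at 270.4 to 696 in ATRXfl_WT and 103 to 223 in p53_G34R. These 3 were higher without overlap, while Vax1 was the 1 that was lower. Sim2, named after its values were seen because DESeq2 called it higher (adjusted p = 0.0130), was at 1.01 to 541 in ATRXfl_WT and 4.61 to 11.8 in p53_G34R, so its groups overlapped.

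Of 12 tested PRC2 subunits, 6 had a positive log2 change (median -0.02), and none passed limma or DESeq2. Of 15 genes of H3.3 deposition and Atrx partners, 5 had a positive change (median -0.21), none passed limma, and 4 were lower and 1 higher without overlap, against 2.73% and 2.65% of all genes. Smchd1, a silencing factor of the inactive X, was at 1221 to 2026 in ATRXfl_WT and 2273 to 3454 in p53_G34R (log2 change -0.85, SE 0.25; limma adjusted p = 0.998). The histone chaperone Nap1l1 was at 2956 to 4848 in ATRXfl_WT and 5576 to 8872 in p53_G34R (log2 change -0.69, SE 0.26). Nbn, of DNA break repair, was at 435 to 731 in ATRXfl_WT and 805 to 964 in p53_G34R (log2 change -0.50, SE 0.26). All 3 are among the lower, whereas Ubn1, a subunit of the Hira complex that deposits H3.3, was the 1 higher, at 3335 to 3494 in ATRXfl_WT and 2649.6 to 2916 in p53_G34R.

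**Figure D5:**
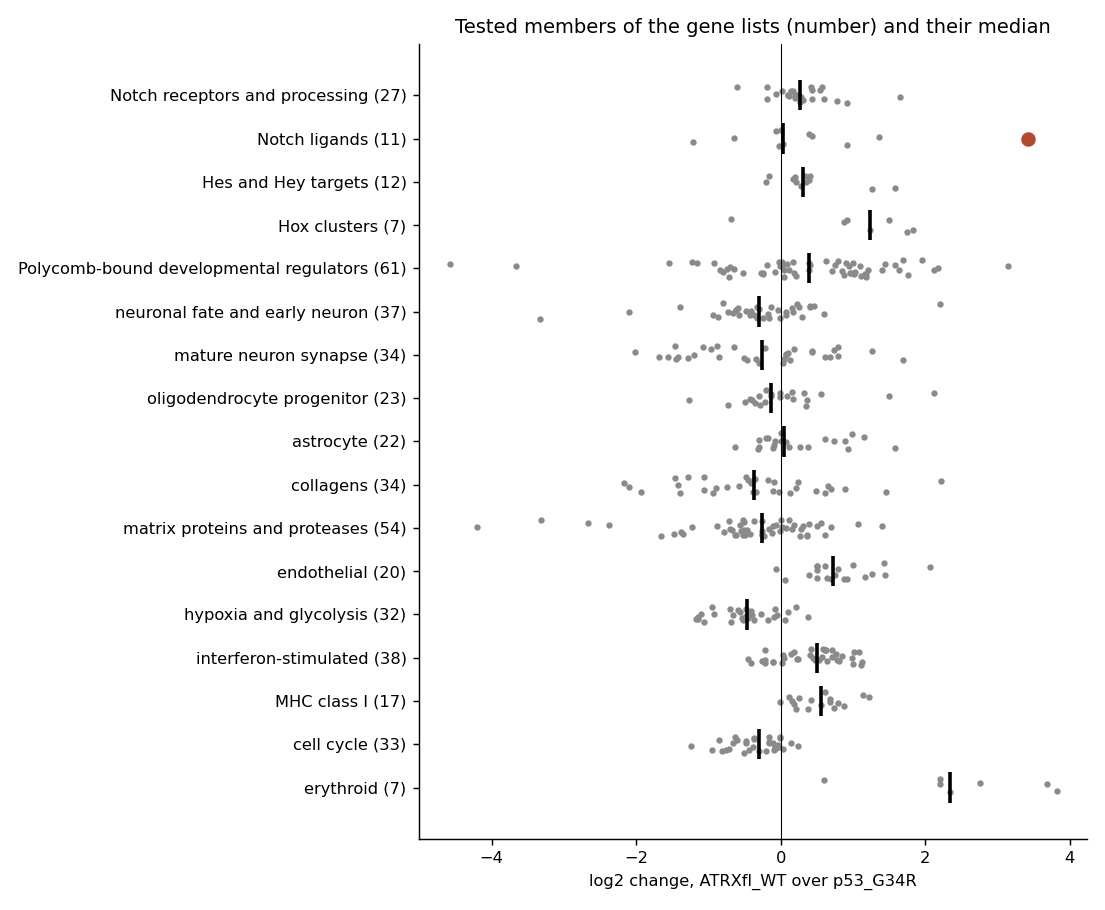
Log2 change, ATRXfl_WT over p53_G34R, of the tested members of 17 gene lists (points, with their number in brackets), with black bars at list medians. The red point is Dll3, the only member of these lists that passed limma; medians run from -0.46 (hypoxia and glycolysis) to 2.34 (erythroid).

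Collagens and other matrix genes were lower in ATRXfl_WT more often than not. Of 34 tested collagens (35 listed), 10 were positive on the log2 scale, with a median of -0.37, as were 17 of 54 matrix proteins and proteases, with a median of -0.26. Over all genes 50.9% were positive. No member of either list passed limma. Summed counts did not show this lean. They were 96519 to 459998 in ATRXfl_WT and 121136 to 275130 in p53_G34R for collagens. For matrix proteins they were 205669 to 449874 and 165046 to 383599. Both sums were highest in library 1 of ATRXfl_WT. When 1 library was left out, the medians lay between -0.85 and -0.15 for collagens and between -0.48 and -0.02 for matrix proteins. Col16a1 was at 12953 to 14726 in ATRXfl_WT and 17316 to 39981 in p53_G34R (log2 change -0.93, SE 0.30), and Col4a6, of basement membranes, at 120.2 to 303 in ATRXfl_WT and 313 to 957 in p53_G34R (log2 change -1.40, SE 0.48). Both were lower without overlap, the only 2 of 34, against 2.73% of all genes. Col1a2, of fibrillar collagen, was at 2398 in library 1 of ATRXfl_WT and at 431 to 582 in the other 3 of its group, against 2011 to 4603 in p53_G34R. Col4a3 was at 45.7 to 645 in ATRXfl_WT and 12.6 to 147 in p53_G34R. These 2 overlapped between groups.

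Among matrix proteases, Mmp3 (stromelysin) was at 1.20 to 47.5 in ATRXfl_WT and 80.1 to 952 in p53_G34R (log2 change -4.21, SE 1.17; limma adjusted p = 0.998, DESeq2 0.00711). The glioma matrix protein Tnc was at 1918 to 4377 in ATRXfl_WT and 5189 to 19019 in p53_G34R (log2 change -1.35, SE 0.49). With Lox, these were the 3 of 54 matrix genes that were lower without overlap (2.73% of all genes). Lama5, a laminin of basement membranes, was the 1 that was higher (2.65% of all genes). It was at 564 to 2328 in ATRXfl_WT and 321 to 450.2 in p53_G34R. Of 21 pericyte, smooth muscle and fibroblast genes, 11 had a positive log2 change (median 0.05, and -0.56 without ATRXfl_WT replicate 1). Dcn, a proteoglycan of fibroblasts, was at 7.87 to 491 in ATRXfl_WT and 494 to 1467 in p53_G34R (log2 change -3.45, SE 1.21), lower without overlap. Myh11, of smooth muscle, was at 24.6 to 270.4 in ATRXfl_WT and 32.3 to 54.5 in p53_G34R and overlapped.

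Growth factor genes were split. Of 30 tested (34 listed), 15 had a positive log2 change (median 0.03), and none passed limma or DESeq2. Fgf1 was at 110.1 to 370.2 in ATRXfl_WT and 24.6 to 102 in p53_G34R (log2 change 2.45, SE 0.64; DESeq2 adjusted p = 0.0603). Bmp4, which turns progenitors towards astrocytes, was at 482 to 1849.8 in ATRXfl_WT and 224 to 386 in p53_G34R. Tgfb3 was at 687 to 1278 in ATRXfl_WT and 321 to 636 in p53_G34R. These 3 were higher and Gdnf lower without overlap, against 2.65% and 2.73% of all genes. Of 35 tested receptor tyrosine kinases and PDGF genes, 22 had a positive change (median 0.09), and Ret was the 1 that passed DESeq2. Pdgfd, a PDGF ligand, was at 33.6 to 267 in ATRXfl_WT and 11.7 to 32.2 in p53_G34R (log2 change 2.17, SE 0.72), and Tyro3, of the TAM receptors, at 1423 to 2123 in ATRXfl_WT and 620.2 to 1166 in p53_G34R. Both were higher without overlap (2.65% of all genes). The ephrin receptor Epha3 was lower, at 1.20 to 20.8 in ATRXfl_WT and 30.5 to 67.2 in p53_G34R. Epha3 and Ret were the 2 members that were lower without overlap (2.73% of all genes).

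Of 30 tested imprinted genes, expressed from 1 parental allele, 13 had a positive log2 change (median -0.04). Peg10, a paternally expressed gene derived from a retrotransposon, was at 1884 to 6184 in ATRXfl_WT and 816 to 1768 in p53_G34R (log2 change 1.81, SE 0.44; limma adjusted p = 0.989, DESeq2 0.0398). It was 1 of 3 imprinted genes that were higher without overlap (2.65% of all genes), and 0 were lower (2.73%). The growth factor Igf2 overlapped, at 3.03 to 8.41 in ATRXfl_WT and 8.08 to 62.0 in p53_G34R. So did its neighbour H19, at 137 to 516 in ATRXfl_WT and 238 to 3513 in p53_G34R. Ube3a, a ubiquitin ligase, was at 1074 to 1918 in ATRXfl_WT and 1586 to 2789 in p53_G34R, and overlapped too.

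No gene of the glial lists passed limma or DESeq2. Of 23 oligodendrocyte progenitor genes, 9 had a positive log2 change (median -0.13, but 0.10 without ATRXfl_WT replicate 2 and 0.22 without p53_G34R replicate 3). Nkx6-2 was at 46.2 to 362 in ATRXfl_WT and 19.3 to 42.8 in p53_G34R, C1ql1 at 1465 to 7888 in ATRXfl_WT and 5636 to 11370.5 in p53_G34R, and Opcml at 3245 to 5636 in ATRXfl_WT and 2331 to 3948 in p53_G34R. Of these, Nkx6-2 alone was without overlap. Bmp4, also of this list, was the other of 2 members that were higher without overlap (2.65% of all genes). Of 19 tested mature oligodendrocyte genes, 11 had a positive change (median 0.20, but -0.08 without ATRXfl_WT replicate 1 and -0.12 without p53_G34R replicate 2). The myelin gene Mal was at 118 to 909 in ATRXfl_WT and 50.3 to 113 in p53_G34R, highest in library 1 of ATRXfl_WT and without overlap. Mag was at 109 to 828 in ATRXfl_WT and 48.5 to 146 in p53_G34R, and the gap junction gene Gjb1 at 111 to 395 in ATRXfl_WT and 286 to 345 in p53_G34R. Of 22 astrocyte genes, 12 had a positive change (median 0.04). Gfap, the filament of astrocytes, was at 5576 to 20508 in ATRXfl_WT and 2861 to 12063 in p53_G34R, the water channel Aqp4 at 551 to 2608 in ATRXfl_WT and 305 to 969 in p53_G34R, and the bicarbonate transporter Slc4a4 at 316 to 717 in ATRXfl_WT and 146 to 428 in p53_G34R. All 3 overlapped.

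Vessel and blood genes were high in 1 library, and none passed limma or DESeq2. Of 20 endothelial genes, 19 had a positive log2 change (median 0.72), but without ATRXfl_WT replicate 1 the median was 0.07. Cldn5, of the tight junctions of brain vessels, was at 22094 in that library and at 1586 to 4199 in the other 3 of its group, against 1006 to 3158 in p53_G34R. The transporter Slco1a4 was at 100.4 to 795 in ATRXfl_WT and 34.1 to 201 in p53_G34R, Ocln, a junction protein, at 56.0 to 415 in ATRXfl_WT and 21.4 to 82.9 in p53_G34R, and the efflux pump Abcb1a at 156 to 1791 in ATRXfl_WT and 75.9 to 385 in p53_G34R. All 4 overlapped between groups. All 7 tested erythroid genes of 8 had a positive change (median 2.34), with 1.16 without ATRXfl_WT replicate 1 and 0.49 without p53_G34R replicate 3. Hba-a1, an alpha globin, was at 106823 in library 1 of ATRXfl_WT and at 956 to 12236 in the other 3, against 94.0 to 4709 in p53_G34R. The beta globin Hbb-bt was at 425 to 54766 in ATRXfl_WT and 40.5 to 2477 in p53_G34R, Alas2, of haem synthesis, at 189.8 to 22154 in ATRXfl_WT and 33.2 to 213 in p53_G34R, and the anion exchanger Slc4a1 at 4.81 to 326 in ATRXfl_WT and 0 to 7.48 in p53_G34R. All 4 overlapped between groups.

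Stress, immune and proliferation lists hung on single libraries, and none of their genes passed limma or DESeq2. Of 32 tested hypoxia and glycolysis genes, 4 had a positive log2 change (median -0.46, but 0.10 without p53_G34R replicate 1). Vegfa, the vessel growth factor induced by hypoxia, was at 1924 to 19562 in ATRXfl_WT, against 43233 in library 1 of p53_G34R and 13842 to 14889 in its other libraries. Angptl4 was at 319.6 to 1138 in ATRXfl_WT and 348 to 3988 in p53_G34R, Ddit4 at 1679.9 to 4514 in ATRXfl_WT and 3583 to 6264 in p53_G34R, and the glycolytic Pfkp at 3660.2 to 4815 in ATRXfl_WT and 3842 to 8269.6 in p53_G34R. All 4 overlapped. Of 33 cell cycle genes, 3 had a positive change (median -0.30, but 0.04 without ATRXfl_WT replicate 1). The replication genes Mcm3 (at 717 to 2985 in ATRXfl_WT and 2783 to 3430.5 in p53_G34R) and Pcna (at 667 to 1663 in ATRXfl_WT and 1512 to 2004 in p53_G34R) overlapped, as did Mcm4 (at 919 to 2009 in ATRXfl_WT and 1524 to 2688 in p53_G34R) and Mcm5 (at 1114 to 3269 in ATRXfl_WT and 2357 to 4285 in p53_G34R).

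Of 38 tested interferon-stimulated genes, 30 had a positive log2 change (median 0.50), but the median was -0.49 without p53_G34R replicate 2 and -0.25 without ATRXfl_WT replicate 4. The antiviral Rsad2 was at 409 to 1713 in ATRXfl_WT and 182 to 1254 in p53_G34R, and Mx2 at 146 to 793 in ATRXfl_WT and 75.4 to 355 in p53_G34R. Tmem173, which encodes STING, was at 459 to 1389 in ATRXfl_WT and 407 to 500.2 in p53_G34R, and the DNA sensor Cgas at 183 to 348 in ATRXfl_WT and 302 to 459 in p53_G34R. All 4 overlapped. Of 17 MHC class I genes, 16 had a positive change (median 0.56, but -0.35 without p53_G34R replicate 2). H2-D1 was at 7339 to 79191 in ATRXfl_WT and 3962 to 55788 in p53_G34R, H2-Q4 at 1029.9 to 16799 in ATRXfl_WT and 225 to 10705 in p53_G34R, and H2-M3 at 259.5 to 2429.9 in ATRXfl_WT and 188 to 1070.3 in p53_G34R. The peptide transporter Tap2 was at 812 to 3589 in ATRXfl_WT and 746 to 1700.1 in p53_G34R. These overlapped as well, and the H2 genes are close relatives whose reads may be split between them.

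Genes near Atrx were examined by position. Of 235 within 5 Mb, 68 were tested and 23 had a positive log2 change (median -0.24, between -0.33 and -0.16 with 1 library left out). Atrx alone passed DESeq2, and 5, Atrx among them, were lower and 1 higher without overlap, against 2.73% and 2.65% of all genes. Rps4x, of the small ribosomal subunit, was at 1699 to 2196 in ATRXfl_WT and 2473 to 3236 in p53_G34R (log2 change -0.52, SE 0.20; limma adjusted p = 0.998), lower without overlap. Pbdc1 was at 623 to 1156 in ATRXfl_WT and 1082 to 1766 in p53_G34R, and Gm6206 at 8.09 to 69.6 in ATRXfl_WT and 59.0 to 87.7 in p53_G34R, both with overlap. Elsewhere, 13 of the 83 genes that DESeq2 called had another called gene within 100 kb, in 12 pairs that all had the same direction. Fbl, Gm45011, Eid2, Selenov and Dll3 made up 8 of these pairs, and the others were Nefm with Nefl, Gm3650 with Eif3j2, Plin1 with Wdr93, and 1700063D05Rik with Gm48710. Pairs that share a gene are not independent. How often neighbours among all genes are called or share a direction was not measured, so these counts are a description.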

How the data were processed

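Bulk mRNA sequencing of 15 tumour libraries (Qiagen RNeasy extraction and TruSeq mRNA preparation, per the labels' protocols) was used as deposited gene tables. STAR 2.7, HTSeq and DESeq2 with build mm10 are named, per the submitters' processing notes. Settings and strand use were not given in the sources used here. Deposited signal values are gene counts that the authors divided by size factors. Whole reads were recovered from the steps of low values: 100% of values came out whole within 0.01, and 0 reads differed between the 5 tables, each of 54232 genes. A further 3 columns, in which 1 read was worth almost 1, were not used. Gene names and positions came from GENCODE vM21, which matched 54165 IDs (99.9%).

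The 7 libraries were scaled together by DESeq2 size factors, and log2(value + 1) was tested with limma 3.58.1 on genes with a mean of at least 10, with adjusted p under 0.05 as a call. Alternatives were edgeR 4.0.16, DESeq2 1.42.0, voom, TMM scaling, other pseudocounts, no filter, all 4 groups in 1 fit, libraries of one title code summed, Xist as a covariate, and each library left out (R 4.3.3). The limma, edgeR, DESeq2 and voom fits were run on simulated counts, the outcome of which is not reported here. Replicates of the same group were compared in 9 pairs by chi-square, which was at least 93.8 times its degrees of freedom. No pair was thus the same library sequenced again. The lowest value was that of p53_G34R replicates 2 and 3, which share the first code of their titles. Separate samples of one tumour or mouse could not be detected in this way. Floors cover counting error only, whereas each SE comes from the limma fit and reflects the spread between libraries.

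The comparison, its members and its 42 gene lists (1100 entries, 10 symbols unmatched) were chosen with earlier results of these data known. Named genes are the engineered ones, all limma calls, the 12 with the lowest p per direction that are not predicted genes or pseudogenes, and up to 4 members of each described list; a few that this rule selects are not reported here. Any other gene is named because of its position or role, or after its values were seen.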

Additional observations from a re-analysis of the deposited data

Results flagged for a closer look

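In 7 of the 116 named genes looked at, 1 ATRXfl_WT library lay far from the other 3, with a gap to the nearest that took up more of the range of the group than Dixon's 95% critical value allows. The limit used was that for 4 values, so the 3 p53_G34R libraries were not screened. Values that stand apart in p53_G34R are therefore not counted here. Chance flags about 1 in 20 independent groups, but genes of one list are not independent, so no conclusion is drawn from the share. In 6 of the 7 flagged genes the library was ATRXfl_WT replicate 1, which also stood apart in erythroid and endothelial markers. The cause was not tested. Pdgfa was low there, at 12619 normalized counts, with the nearest other library at 27101. Col1a2 was high at 2398 (nearest 582), Cldn5 at 22094 (nearest 4199) and Alas2 at 22154 (nearest 2672). The globins Hbb-bt and Hba-a1 were high at 54766 (nearest 6017) and 106823 (nearest 12236). Vax1 was at 6.88 in ATRXfl_WT replicate 4 and at 0 in the other 3 libraries of that group.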

How the results depend on the processing

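The number of limma calls was 4. It was 9 with no filter, 2 with voom and 0 with edgeR, with libraries of one title code summed and with Xist as a covariate, whereas DESeq2 called 83, and it was 0 to 1 with 1 library left out (Dll3 without ATRXfl_WT replicate 1). The adjusted p of Dll3 ran from 1.53e-17 (DESeq2) to 1 (all 4 groups in 1 fit), and its log2 change from 3.21 to 3.61 with 1 library left out. Directions turned for H3f3b (0.010 with voom, and -0.43 to 0.054 with 1 library left out), and with 1 library left out for Pdgfa (-0.027 to 0.43), H2-Q4 (-0.35 to 2.43), H2-M3 (-0.11 to 1.14) and H2-D1 (-0.35 to 1.56). The libraries left out were p53_G34R replicate 1 for H3f3b and Pdgfa and replicate 2 for the H2 genes. None of these genes was called, and the cause was not tested. List medians near 0 turned sign under at least 1 alternative, with ranges of -0.08 to 0.28 for Notch ligands, -0.21 to 0.055 for PRC2 subunits, -0.10 to 0.22 for growth factors, -0.037 to 0.20 for receptor tyrosine kinases, -0.19 to 0.052 for imprinted genes and -0.0041 to 0.25 for astrocyte genes. No paired analysis was possible because replicate numbers were given in accession order and pair no libraries. With 4 against 3 libraries, small changes were not detectable at this number of replicates.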

Other observations

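Further lists held no gene called by limma or DESeq2. Ranges are those of the median log2 change over the alternatives tried. Log2 changes were positive in 5 of 17 genes of H3K9 methylation and HP1 (median -0.20, range -0.23 to -0.07), in 6 of 20 telomere genes (-0.22, range -0.31 to -0.05), in 6 of 16 cyclin D, RB and Cdkn genes (-0.11, range -0.31 to -0.02) and in 6 of 14 genes of the Myc network (-0.08, range -0.12 to -0.00037). In these the median kept its sign. For the other lists it turned under at least 1 alternative.

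Writers of H3K36 methylation were positive in 6 of 10 (median 0.14, range -0.07 to 0.25), ventral forebrain and interneuron genes in 5 of 13 (-0.12, range -0.48 to 0.18), dorsal forebrain genes in 9 of 14 (0.05, range -0.26 to 0.20) and neural stem genes in 10 of 19 (0.06, range -0.10 to 0.06). Microglia and macrophage genes were positive in 16 of 27 (0.10, range -0.33 to 0.52), T and NK cell genes in 9 of 16 (0.03, range -0.32 to 0.42), B and plasma cell genes in 7 of 18 (-0.30, range -0.99 to 0.77) and genes of inflammation and neutrophils in 12 of 25 (-0.0037, range -0.86 to 0.68). MHC class II genes were positive in 1 of 10 (-0.46, range -1.26 to 0.02) and genes of the unfolded protein response in 2 of 17 (-0.50, range -0.82 to 0.06), and both turned without p53_G34R replicate 1. Targets of Trp53, which is floxed in both groups, were positive in 16 of 28 (0.01, range -0.04 to 0.07), immediate early genes in 16 of 27 (0.14, range -0.13 to 0.35) and choroid plexus and ependyma genes in 3 of 6 (0.10, range -0.11 to 0.53).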
